A study of Homo sapiens with 6 samples.

Results

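The annexins are a family of calcium-dependent proteins that bind acidic phospholipids on the inner face of cell membranes. They link membranes to the actin cortex and take part in endocytosis, exocytosis and the resealing of torn plasma membrane, and several of them work as complexes with small S100 proteins. In hepatocellular carcinoma (HCC), ANXA2 is among the members most often studied. The mRNA levels of 10 annexin genes, of 29908 genes in the table, are described here in Hep3B cells in which DAGLA, the gene of diacylglycerol lipase alpha that makes the endocannabinoid 2-arachidonoylglycerol, was knocked down. The 10 genes were ANXA1, ANXA2, ANXA2P2, ANXA3, ANXA4, ANXA5, ANXA6, ANXA7, ANXA11 and ANXA13, each taken by the Ensembl identifier that GENCODE release 29 assigns to its symbol. They were chosen by name, with their FPKM values and fold changes in this same comparison already known. Their changes are therefore given as a description with a standard error (SE) and support no statement about the family. No p-value of a member is printed. Calls of members by a threshold on the adjusted p are counted as part of that description.

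Hep3B is an established human HCC cell line. Hep3B-KD cells were infected with a lentivirus that carried a short hairpin RNA against DAGLA (shDAGLA), and Hep3B-Con cells with a control lentivirus. Both groups went through the same infection and were kept under puromycin to select cells that held the construct. RNA sequencing was done on 3 biological replicates of each group. A single hairpin was sequenced, without a rescue, so effects of the loss of DAGLA and other effects of that hairpin cannot be told apart. The culture times after selection and whether each replicate came from its own infection are not given in the sources used here.

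The unit of the table is FPKM, in which the reads of a gene are divided by the length of its exons and by the depth of the library. The libraries held between 15861039 and 17572714 reads assigned to the genes of the table, as recovered from the FPKM values. All read counts given here are of this kind. DAGLA was at 9.42, 9.40 and 9.02 FPKM in Hep3B-Con replicates 1 to 3 and at 4.62, 4.46 and 4.78 FPKM in Hep3B-KD replicates 1 to 3, a log2 fold change of -0.99 ± 0.04 (SE), so the target was lower in every library labelled as its knockdown. All 8 hepatocyte markers examined were past the level filter, with summed levels of 2527 to 2577 FPKM in Hep3B-Con and 4053 to 4072 FPKM in Hep3B-KD, and 7 of them rose while FGB, a chain of fibrinogen, fell. The 4 cholangiocyte markers summed to 273 to 321 FPKM in Hep3B-Con and 351 to 396 FPKM in Hep3B-KD. KRT7, one of them, went against the other 3 and fell from 2.15 to 0.710 FPKM. Fibroblast markers summed to 3.45 to 3.74 FPKM and 2.43 to 2.48 FPKM (3 of 4 in the table, 2 tested and both lower). COL1A1, 1 of those 2, passed the level filter only through its Hep3B-Con values, with group means of 0.745 and 0.271 FPKM. It therefore had to differ, and its call is no support. Endothelial markers summed to 0.194 to 0.217 FPKM and 0.268 to 0.385 FPKM (none of 3 tested). Leukocyte markers summed to 2.08 to 3.17 FPKM and 3.02 to 4.0 FPKM (2 of 4 in the table, the 1 tested not called). Of the last 2 lists, CDH5, VWF and PTPRC were at 6 reads or fewer in each library, whereas PECAM1 had 25 to 28 reads in Hep3B-Con and 33 to 48 in Hep3B-KD, and LYZ had 64 to 113 reads over all libraries. ALB made up most of the hepatocyte sums, with means of 2042 FPKM in Hep3B-Con and 3315 FPKM in Hep3B-KD. Beside these marker counts, 36.1% of all 14221 genes tested were called higher and 23.8% lower. The part of these marker differences in the annexin values was not tested.

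The members differ in place and in kind. Of the 10 genes, 9 code for proteins, and ANXA2P2 is a processed pseudogene, an intronless copy of the ANXA2 mRNA that was inserted elsewhere in the genome. On the build GRCh38, GENCODE places ANXA2 (ENSG00000182718) at chr15:60347134-60402883 on the minus strand and ANXA2P2 (ENSG00000231991) at chr9:33624274-33625293 on the plus strand. ANXA1 (ENSG00000135046) lies at chr9:73151757-73170393, ANXA4 (ENSG00000196975) at chr2:69644425-69827100, and ANXA3 (ENSG00000138772) at chr4:78551519-78610451. ANXA5 (ENSG00000164111) lies at chr4:121667955-121697113, ANXA6 (ENSG00000197043) at chr5:151100712-151157882, ANXA7 (ENSG00000138279) at chr10:73375101-73414076 and ANXA11 (ENSG00000122359) at chr10:80150889-80205572. The position of ANXA13 (ENSG00000104537) is not given here. Exons of ANXA7 shared 105 bases with a gene on the opposite strand, AL512656.1, which was at 0.0501 FPKM. No other member shared exon bases with another gene.

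ANXA2 and ANXA2P2 need to be read together, because their sequences decide whether a read can be assigned to one of them. Over the 1020 bases of ANXA2P2, 1004 were identical to the principal ANXA2 transcript of GENCODE, an identity of 98.4%, and the alignment held 16 differences and no gap. A stretch dense in differences is shown, with both sequences taken from the GENCODE transcripts, 5' to 3'. It covers positions 161 to 220, counted from 1 at the first base of the ANXA2 coding sequence, and capitals mark the 5 bases that differ (T178G, A190G, G191A, C215T and G220T, with the ANXA2 base first).
ANXA2: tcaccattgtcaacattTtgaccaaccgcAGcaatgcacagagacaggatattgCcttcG
ANXA2P2: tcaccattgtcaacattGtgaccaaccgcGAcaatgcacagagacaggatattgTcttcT
Elsewhere the copy ran for up to 221 bases without a difference. Windows of ANXA2P2 were also searched letter for letter in all 38 ANXA2 transcripts of GENCODE. At least 1 transcript held them in 59.2% of positions at 50 bases, 31.2% at 100 bases and 13.2% at 150 bases. The read length and the handling of reads with several matches are not given in the sources used here. The split of reads between both genes is therefore uncertain.

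The hairpin and its possible matches in the annexins are shown because all comparisons rest on this 1 construct. The 19 bases of the shDAGLA target are given as the study lists them, in DNA letters 5' to 3', and the guide strand is their reverse complement. Capitals mark bases 2 to 8 of the guide (the seed) and the matching bases of the target.
shDAGLA target: gcgacaacaagGCCTTCAa
guide strand: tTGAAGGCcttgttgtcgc
The seed match GCCTTCA was searched on the sense strand of every GENCODE transcript. It was in no transcript of 9 members. In ANXA4 it was in 1 of 12 transcripts, which is annotated as a target of nonsense-mediated decay, at positions 927 to 933 in the 3' UTR, and not in the principal ANXA4 transcript. The site is shown with its flanks, capitals marking the match.
ANXA4 site: aacaaagaaaaGCCTTCAtgacagagatg
Among the 14221 genes tested, 34.0% held the match in at least 1 transcript, and so did both DAGLA transcripts. ANXA4, the 1 member with a match, was also the 1 member called higher. Levels of single transcripts were not measured, and any effect of the match was not tested.

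ANXA2 forms a tetramer with S100A10 at the plasma membrane, where it binds actin and plasminogen. Its level was 66.1, 68.1 and 67.2 FPKM in Hep3B-Con replicates 1 to 3 and 26.7, 27.0 and 26.7 FPKM in Hep3B-KD replicates 1 to 3. The groups were far apart and each was tight, with means of 67.1 ± 1.01 and 26.8 ± 0.182 FPKM (SD, n = 3 each), a 2.50-fold fall. The log2 fold change, on the log2(FPKM + 0.1) scale as all that follow, was -1.32 ± 0.02 (SE). ANXA2 was covered by 9867 to 10442 reads in Hep3B-Con and 3742 to 3903 reads in Hep3B-KD. In bulk RNA such as this, fewer cells with the mRNA and less mRNA per cell cannot be told apart.

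ANXA2P2 followed ANXA2 with a wider spread. It was at 40.4, 42.6 and 39.9 FPKM in Hep3B-Con and at 15.5, 19.2 and 17.3 FPKM in Hep3B-KD. Its groups did not overlap either, and the log2 fold change was -1.24 ± 0.08 (SE), a 2.36-fold fall of the mean. The reads behind these levels were 678 to 755 in Hep3B-Con and 250 to 315 in Hep3B-KD. For each 100 reads of ANXA2 there were 7.07, 7.23 and 6.87 reads of ANXA2P2 in Hep3B-Con and 6.68, 8.23 and 7.51 in Hep3B-KD. These ratios overlapped between the groups, with means of 7.06 ± 0.180 and 7.47 ± 0.776 (SD, n = 3 each). With the reads of both genes summed into 1 gene before the fit, the log2 fold change was -1.32 ± 0.02 (SE). Both genes are on a list of the study that required, beside criteria from other data, a change in these same 6 samples, so their place on it is not independent evidence.

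ANXA1 binds S100A11 and is known for its anti-inflammatory action through formyl peptide receptors. It was the least abundant member, at 0.524, 0.328 and 0.263 FPKM in Hep3B-Con and 0.0829, 0.0546 and 0.0529 FPKM in Hep3B-KD. No value overlapped between the groups, and the Hep3B-KD mean was 5.86-fold lower. These levels rested on 42, 26 and 20 reads in Hep3B-Con and on 6, 4 and 4 reads in Hep3B-KD. ANXA1 was under the filter of 0.5 FPKM on the mean and was not among the genes tested. In a fit without the filter its log2 fold change was -1.50, a value that the pseudocount of 0.1 FPKM holds down because it is larger than the Hep3B-KD level. The receptor genes FPR1, FPR2 and FPR3 were not analysed here.

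ANXA3 and ANXA5, both of the group of annexins with a short N-terminal tail, also fell, by less. ANXA5, the protein used as a probe for phosphatidylserine on dying cells, was at 92.6, 98.3 and 95.9 FPKM in Hep3B-Con and at 75.1, 72.6 and 76.4 FPKM in Hep3B-KD. Its groups were separate, with a log2 fold change of -0.35 ± 0.03 (SE), or a mean 1.28-fold lower. ANXA3 was at 18.0, 17.8 and 18.0 FPKM in Hep3B-Con and at 11.8, 11.3 and 11.8 FPKM in Hep3B-KD. The ANXA3 groups were separate too, with a log2 fold change of -0.62 ± 0.03 (SE), or a mean 1.54-fold lower.

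ANXA4, an annexin of epithelial cells, went the other way. It was at 24.8, 25.0 and 24.8 FPKM in Hep3B-Con and at 34.3, 33.9 and 35.0 FPKM in Hep3B-KD. Every Hep3B-KD value lay above every Hep3B-Con value, and ANXA4 rose by a log2 fold change of 0.47 ± 0.02 (SE), or 1.38-fold. It was covered by 4555 to 4810 reads in Hep3B-Con and 6014 to 6421 reads in Hep3B-KD.

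ANXA7 and ANXA11 carry long N-terminal tails that bind penta-EF-hand proteins, and ANXA11 is known for tethering RNA granules to lysosomes. ANXA7 was at 25.2, 25.2 and 25.6 FPKM in Hep3B-Con and at 25.0, 25.2 and 22.7 FPKM in Hep3B-KD. Its groups overlapped, Hep3B-KD replicate 3 standing lowest, with a log2 fold change of -0.06 ± 0.04 (SE). ANXA11 was at 17.5, 16.7 and 16.8 FPKM in Hep3B-Con and at 15.5, 16.5 and 16.2 FPKM in Hep3B-KD. Its groups were separate by a narrow gap, and its log2 fold change of -0.08 ± 0.04 (SE) was not called.

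ANXA6, which has a doubled annexin core, and ANXA13, an annexin of intestinal epithelium, were both low. ANXA6 was at 0.535, 0.509 and 0.631 FPKM in Hep3B-Con and at 0.616, 0.539 and 0.555 FPKM in Hep3B-KD. Its groups overlapped throughout, with a log2 fold change of 0.03 ± 0.21 (SE) as deposited, -0.07 after median centring and -0.29 after quantile normalization, so its direction is not given. ANXA13 was at 1.48, 1.30 and 1.58 FPKM in Hep3B-Con and at 1.11, 1.31 and 1.11 FPKM in Hep3B-KD. Hep3B-KD replicate 2 lay within the Hep3B-Con values, and the log2 fold change was -0.28 ± 0.13 (SE). ANXA6 rested on 47 to 57 reads per library and ANXA13 on 67 to 100.

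**Figure D1:**
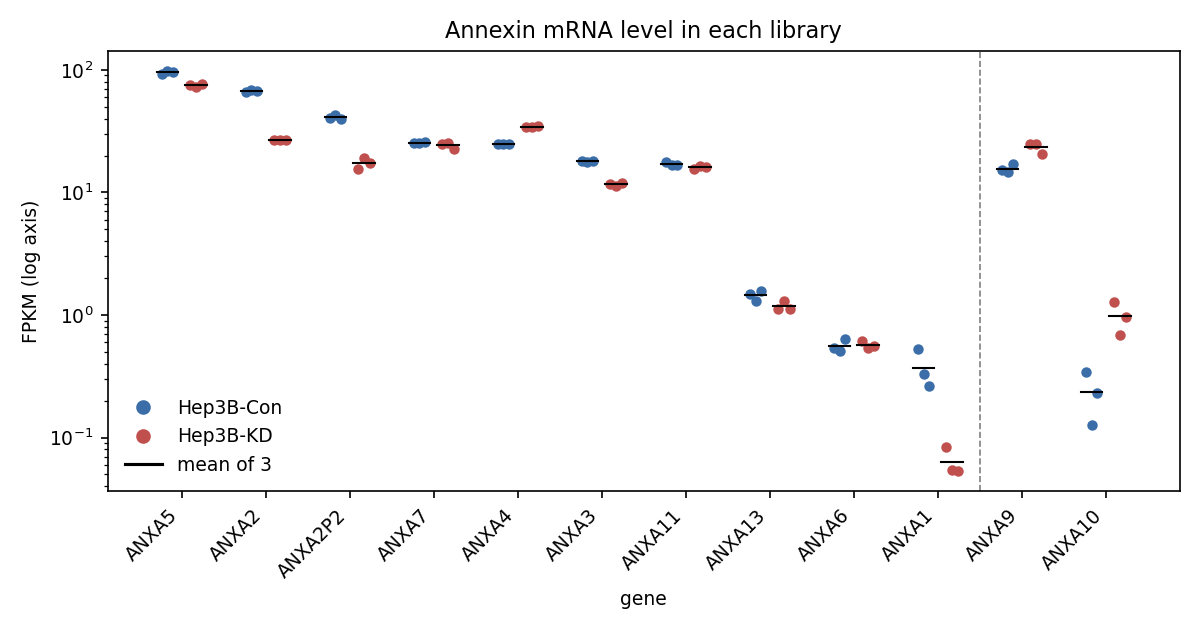
FPKM of each annexin gene in each library on a log axis, with the 10 members left of the dashed line in order of their Hep3B-Con mean and ANXA9 and ANXA10 right of it (blue, Hep3B-Con; red, Hep3B-KD; black bars, mean of 3 libraries). ANXA2 fell from 67.1 to 26.8 FPKM and ANXA4 rose from 24.9 to 34.4 FPKM, and ANXA1 was at most 0.524 FPKM in any library.

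Of the 10 members, 9 passed the level filter. Among these 9, 4 (ANXA2, ANXA2P2, ANXA3 and ANXA5) were called lower at an adjusted p under 0.05, 1 (ANXA4) was called higher and 4 (ANXA6, ANXA7, ANXA11 and ANXA13) were not called. Over all 14221 genes tested, 23.8% were called lower and 36.1% higher, 59.9% in all. ANXA2 and ANXA2P2 were lower by 2-fold or more, beside 2.94% of all genes lower and 5.89% higher past that fold. The 3 Hep3B-KD values lay below the 3 Hep3B-Con values in 5 tested members, beside 26.3% of all genes, and above them in 1, beside 40.7%. Nothing is read from these counts, because this comparison was known when the members were chosen. The split of reads between ANXA2 and ANXA2P2 is also uncertain, so their calls may not be separate results. The median log2 fold change of the 9 was -0.28, and that of all genes tested was 0.11. Relative to that shift of all genes, ANXA2 changed by -1.43, ANXA2P2 by -1.35, ANXA3 by -0.73, ANXA5 by -0.46 and ANXA4 by 0.36 on the log2 scale.

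The calls of 3 members turned on how the libraries were scaled. With each library centred on the median log ratio, ANXA7 at -0.16, ANXA11 at -0.18 and ANXA13 at -0.39 were called lower as well, which made 7 members lower and 1 higher. On the whole reads recovered from the FPKM values (limma's voom, with the same centring) these 3 were also called, at -0.17, -0.19 and -0.41. Over all 14221 genes tested, 8372 were called with median centring and 8793 with voom, in either direction. Their split into lower and higher is not given here. The shares of 23.8% lower and 36.1% higher hold for FPKM as deposited only. Under quantile normalization ANXA13 was called at -0.54, ANXA11 stood at -0.07 without a call, and ANXA7 turned to 0.01. ANXA2, ANXA2P2, ANXA3, ANXA4 and ANXA5 kept their direction and their call under each of these scalings.

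**Figure D2:**
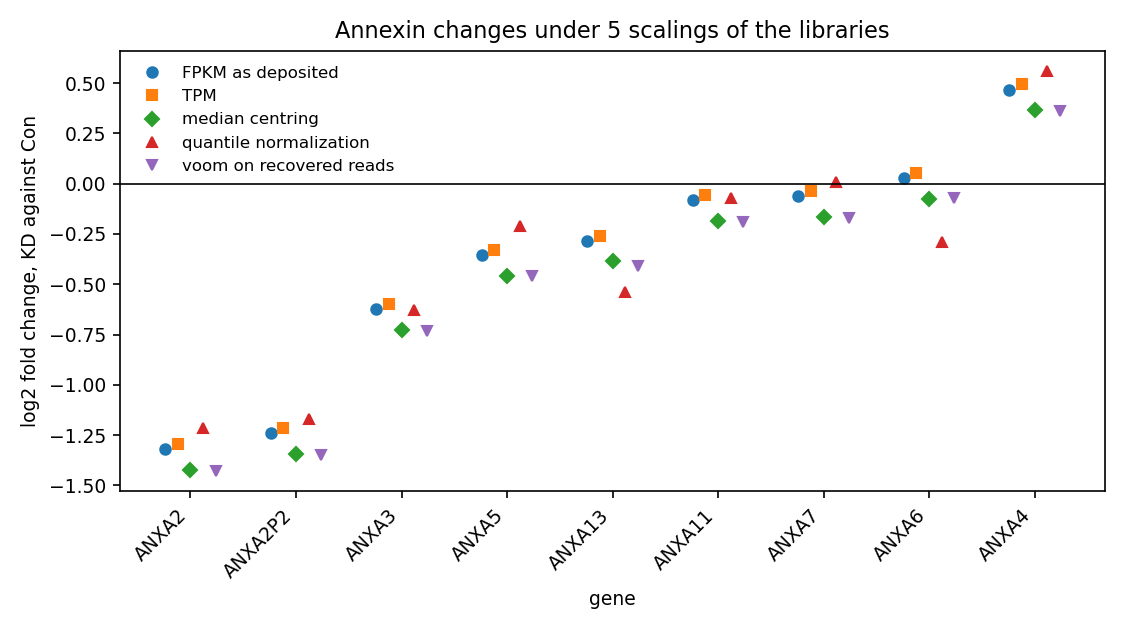
Log2 fold change, Hep3B-KD against Hep3B-Con, of the 9 tested members under 5 scalings of the libraries (symbols; no error bars). ANXA2, ANXA2P2, ANXA3, ANXA5 and ANXA13 lay below 0 and ANXA4 above 0 under all 5, while ANXA6 ran from -0.29 to 0.05 and ANXA7 crossed 0 at 0.01 under quantile normalization.

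The order of the annexin levels differed between the groups. In Hep3B-Con the mean FPKM fell from ANXA5 (95.6) through ANXA2 (67.1), ANXA2P2 (41.0), ANXA7 (25.3), ANXA4 (24.9), ANXA3 (17.9), ANXA11 (17.0) and ANXA13 (1.45) to ANXA6 (0.558) and ANXA1 (0.372). Only ANXA6 and ANXA1 overlapped among neighbours in that order. In Hep3B-KD the order was ANXA5 (74.7), ANXA4 (34.4), ANXA2 (26.8), ANXA7 (24.3), ANXA2P2 (17.3), ANXA11 (16.1), ANXA3 (11.6), ANXA13 (1.18), ANXA6 (0.570) and ANXA1 (0.0635). There ANXA2P2 and ANXA11 overlapped, and no other neighbours did. ANXA4 thus stood above ANXA2 in Hep3B-KD and below it in Hep3B-Con in FPKM as deposited, a crossing that did not hold with the other length given next.

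These levels depend on the length that divides the reads. The deposited FPKM values divide by all exon bases of a gene, which come to 8824 bases for ANXA2 and 11048 bases for ANXA4, whereas their principal transcripts in GENCODE have 1676 and 2799 bases. ANXA2P2 has 1020 bases by both measures. With reads divided by the length of the principal transcript in place of all exon bases, and otherwise scaled as FPKM, the levels in Hep3B-Con were 353 for ANXA2, 165 for ANXA5, 98.1 for ANXA4, 55.5 for ANXA3 and 41.0 for ANXA2P2. On that scale ANXA2 stood above ANXA5, and ANXA4 and ANXA3 above ANXA2P2. In Hep3B-KD replicates 1 to 3, ANXA2 was at 140.8, 142.2 and 140.3 and ANXA4 at 135.5, 133.8 and 138.3 on the same scale. ANXA2 thus stood first in both groups there, with Hep3B-KD means of 141.1 for ANXA2, 135.8 for ANXA4 and 128.7 for ANXA5. The choice of length does not enter the ratio of a gene's means, but it sets how far the pseudocount shrinks its log2 fold change.

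The 10 members took 0.152% ± 0.00150 of all recovered reads in Hep3B-Con, against 0.113% ± 0.000675 for Hep3B-KD (SD, n = 3 each). Within the annexin reads, ANXA2 held 39.0% ± 0.207 in Hep3B-Con and 20.8% ± 0.237 in Hep3B-KD. ANXA4 held 18.1% ± 0.0916 and 33.5% ± 0.385, and ANXA5 held 19.1% ± 0.384 and 20.0% ± 0.436. The shares of ANXA2 and ANXA4 therefore differed between the groups by far more than their spread. Those of ANXA5 differed little but did not overlap, at 18.7% to 19.4% and 19.5% to 20.3%. The total behind these shares was itself lower in Hep3B-KD, with a mean of 18355 annexin reads against 26110 in Hep3B-Con. ANXA2 alone went from a mean of 10184 to 3824 reads. A share can thus rise without a rise of the gene, as for ANXA5, whose FPKM fell.

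The member list leaves out annexin genes that went up. ANXA9, an annexin whose core has lost its calcium sites, was at 15.4, 14.7 and 16.9 FPKM in Hep3B-Con and at 24.9, 24.9 and 20.5 FPKM in Hep3B-KD. All its Hep3B-KD values lay above its Hep3B-Con values, with a log2 fold change of 0.58 ± 0.09 (SE, limma, adjusted p = 0.00144). ANXA10, a gene mainly of gastric epithelium, was at 0.345, 0.127 and 0.232 FPKM in Hep3B-Con and at 1.29, 0.687 and 0.965 FPKM in Hep3B-KD. For ANXA10 the log2 fold change came to 1.70 ± 0.37 (SE), a 4.17-fold difference of means that rests on 4 to 11 reads in Hep3B-Con and 20 to 37 reads in Hep3B-KD. ANXA10 passed the level filter only through its Hep3B-KD values, with group means of 0.235 and 0.980 FPKM, so it had to differ and its call is no support. With a pseudocount of 1 FPKM its log2 fold change was 0.67. Without Hep3B-KD replicate 1, ANXA10 no longer passed the level filter. ANXA8, ANXA8L1 and ANXA2P1 had at most 5 reads in any library and ANXA2P3 was not analysed here. ANXA2R, which codes for a receptor of ANXA2 and not for an annexin, had 8 to 25 reads and was under the filter. Over all 15 annexin genes in the table, 11 were tested, of which 4 were called lower, 3 higher (ANXA10 among them) and 4 were not called, beside 23.8% lower, 36.1% higher and 59.9% in all among the genes tested. Their median log2 fold change was -0.08. It includes ANXA10, which had to differ, so nothing is read from it.

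**Figure D3:**
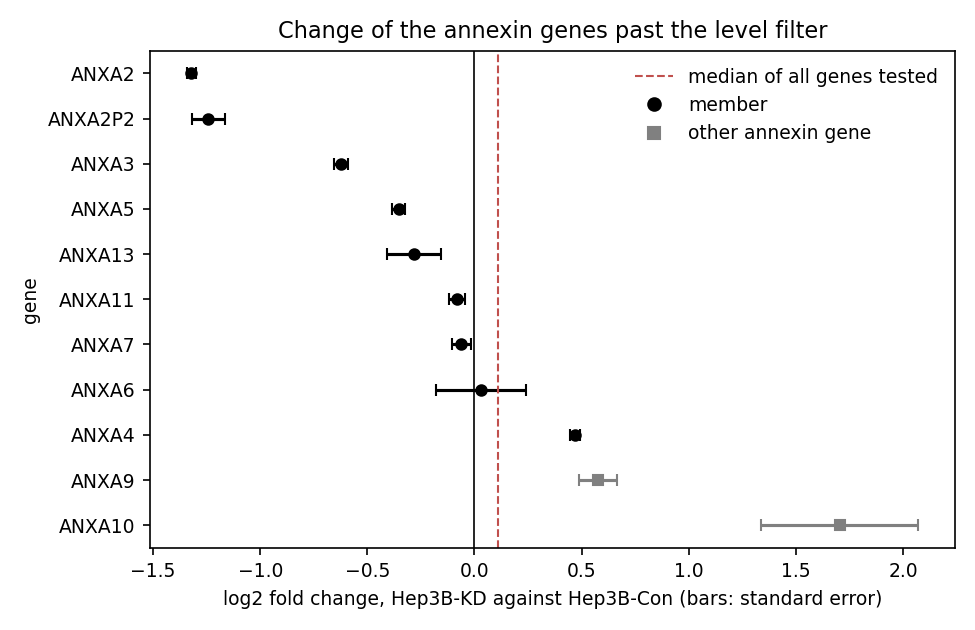
Log2 fold change, Hep3B-KD against Hep3B-Con, with its standard error (3 libraries a group) for the 11 annexin genes past the level filter. Circles are the 9 members, grey squares are ANXA9 and ANXA10, the solid line is at 0 and the dashed line at the median of all genes tested, 0.11. ANXA2 and ANXA2P2 lay lowest at -1.32 and -1.24, and ANXA10 highest at 1.70.

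Genes whose products work with annexins, together with the copines, a separate phospholipid-binding family, were read from the same fit in lists by function. These lists, copines included, were drawn up with earlier results of these data known. Over the 5 lists together, 28 of 35 genes were tested, 14 were called lower, 8 higher and 6 were not called, beside 23.8% of all genes called lower, 36.1% higher and 59.9% in all. The median log2 fold change of the 28 was -0.17, beside 0.11 for all genes. The same shares stand behind the counts of each list. All their p-values are limma's, adjusted over all genes.

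Of the 4 S100 genes, 2 were called lower and none higher. Their median log2 fold change was -0.68. S100A11, a partner of ANXA1 and ANXA2, was at 30.3, 29.5 and 29.3 FPKM in Hep3B-Con and at 3.80, 4.67 and 4.08 FPKM in Hep3B-KD. This was a 7.10-fold fall, with a log2 fold change of -2.80 ± 0.07 (SE), larger in size than that of any annexin tested. S100A11 is on the same list of the study as ANXA2 and ANXA2P2, so this value too is given as a description. S100A6, another calcium-binding partner of annexins, was at 16.8, 17.7 and 21.2 FPKM in Hep3B-Con and at 7.92, 8.46 and 9.56 FPKM in Hep3B-KD, a log2 fold change of -1.09 ± 0.10 (SE, adjusted p = 0.000138). S100A10, the subunit that pairs with ANXA2, was at 9.52, 8.84 and 9.34 FPKM in Hep3B-Con and at 9.40, 9.16 and 7.62 FPKM in Hep3B-KD. The S100A10 groups overlapped, and its log2 fold change of -0.09 ± 0.08 (SE, adjusted p = 0.410) was not called. S100A4 had 5 to 17 reads per library and was not called, at -0.27 ± 0.47 (SE).

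Of the 3 penta-EF-hand partners of ANXA7 and ANXA11, 1 was called lower. SRI, which codes for sorcin, was at 7.79, 7.26 and 7.81 FPKM in Hep3B-Con and at 4.64, 5.47 and 5.33 FPKM in Hep3B-KD. It fell by 0.56 ± 0.07 (SE, adjusted p = 0.000552) on the log2 scale. PDCD6 (ALG-2), a partner of both annexins, stood at 0.04 ± 0.04 (SE) and PEF1 at -0.01 ± 0.06 (SE), neither called, and both changed sign under other scalings or without 1 library.

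Of the 8 signalling partners, 7 were tested, of which 4 were called higher, 1 lower and 2 were not called. EGFR, the epidermal growth factor receptor whose traffic annexins influence, was at 23.5, 23.3 and 23.2 FPKM in Hep3B-Con and at 50.2, 49.2 and 49.9 FPKM in Hep3B-KD. EGFR rose by a log2 fold change of 1.09 ± 0.02 (SE, adjusted p = 2.17e-07). PRKCA, the protein kinase C isoform that ANXA6 is known to bind, rose by 1.19 ± 0.04 (SE, adjusted p = 1.96e-06), from a mean of 5.17 to 11.9 FPKM. NEDD4, a ubiquitin ligase, rose by 1.14 ± 0.12 (SE, adjusted p = 0.000206), from 1.73 to 3.92 FPKM. PRKCD, another protein kinase C, fell from 6.24 to 4.48 FPKM (log2 fold change -0.47 ± 0.07, SE, adjusted p = 0.000809). MET, the hepatocyte growth factor receptor, was at 31.8 FPKM in both groups and was not called as deposited, whereas it was called lower at -0.10 with median centring and at -0.11 with voom, and higher at 0.08 with quantile normalization.

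Of the 11 genes of membrane repair and the cell cortex, 9 were tested, of which 7 were called lower and 2 higher. EHD2, an ATPase at the necks of caveolae, fell from 13.5, 13.3 and 15.1 FPKM to 4.97, 5.11 and 5.02 FPKM, a log2 fold change of -1.45 ± 0.06 (SE, adjusted p = 3.02e-06). CAPNS1, the small subunit of the calpains, fell from a mean of 50.4 to 34.5 FPKM (-0.55 ± 0.03, SE, adjusted p = 1.62e-05). CAPN1, the catalytic subunit of calpain 1, fell from 32.5 to 28.7 FPKM (-0.18 ± 0.02, SE, adjusted p = 0.000399). AHNAK, the large scaffold that binds the ANXA2 and S100A10 complex, rose from 11.1 to 16.7 FPKM (0.58 ± 0.04, SE, adjusted p = 2.68e-05). CHMP4B, a membrane-cutting ESCRT-III subunit, rose from 48.3 to 62.2 FPKM (0.36 ± 0.05, SE, adjusted p = 0.000812).

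The copines are a separate family that also binds phospholipids in the presence of calcium. Of 9 copine genes 5 were tested, of which 3 were called lower and 2 higher. Their median log2 fold change was -0.34. CPNE8 fell from 10.8 to 6.40 FPKM (-0.75 ± 0.04, SE, adjusted p = 1.56e-05) and CPNE7 from 6.06 to 4.79 FPKM (-0.34 ± 0.08, SE, adjusted p = 0.0104). CPNE1 rose from 29.5 to 36.5 FPKM (0.31 ± 0.05, SE, adjusted p = 0.00170). CPNE3 stood at 0.14 ± 0.05 (SE, adjusted p = 0.0480), a call that was lost in 10 of 16 alternatives. PLG and PLAT, the plasminogen and plasminogen activator genes of the pathway that cell-surface ANXA2 serves, had at most 11 reads in any library and were not tested.

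Promoters were examined as a sequence feature that the choice of members did not use. RefSeq promoters of 300 bases (build GRCh38.p14, 250 before to 50 after a start site) were found for 8 of the 10 members, 12 promoters in all. They were searched on both strands for GGAATG, the core motif of the TEAD factors that act in the pathway the study examined, and for the AP-1 motif TGANTCA, which was added later. GGAATG was in none of the 12, so no matches overlapped, and it was in 14.0% of all 35116 promoters. TGANTCA was in the promoter of ANXA2 only, and in 7.71% of all promoters. The 250 bases before the ANXA2 start site, on the minus strand of chr15:60397987-60398236, are shown 5' to 3' with that match in capitals, 127 to 121 bases before the start site.
ANXA2 promoter: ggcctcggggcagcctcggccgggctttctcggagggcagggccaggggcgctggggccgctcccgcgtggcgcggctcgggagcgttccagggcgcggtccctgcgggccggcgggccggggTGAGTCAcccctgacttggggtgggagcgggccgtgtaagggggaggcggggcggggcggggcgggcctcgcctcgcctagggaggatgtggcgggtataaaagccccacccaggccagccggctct
The ANXA2 promoter held 32 CpG pairs and that of ANXA1 held 0. The others held 44 and 27 (ANXA4), 36 (ANXA5), 30, 12 and 7 (ANXA11), 25 and 10 (ANXA6), 25 (ANXA3) and 23 (ANXA7). The median of all promoters was 14 and 3.96% held none. A match is only a run of letters, and binding was not measured here.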

How the data were processed

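The unit that the authors deposited is FPKM, reads divided by exon length and library depth, for 29908 Ensembl identifiers in 6 libraries, 1 column each and 0 other value columns. Per the labels, the processing notes name TopHat2 2.0.12, Bowtie2 2.0.6 and GRCh37. Yet all identifiers and exon lengths matched GENCODE release 29 (GRCh38), with which 100% of the 138115 values above 0 were whole reads (tolerance 0.01). Samples were grouped by the hairpin in their titles.

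On the log2(FPKM + 0.1) scale, 14221 genes passed the filter (mean over the libraries at or above 0.5 FPKM) and were tested with limma 3.58.1 (R 4.3.3; eBayes with a trend, no replicate block, Benjamini-Hochberg adjustment over all genes), and a call means an adjusted p under 0.05. Nothing in the sources used here says that the replicates were separate infections, so p-values measure the spread between these samples. Because the FPKM values hold whole reads, limma's voom on those reads was the count-based alternative. The annexins, the lists and the tests were chosen with earlier results of these data known. Named genes were all annexins and DAGLA. Of each list, the 4 with the highest mean FPKM were named, plus any called with a fold change of at least 2 (S100A4 falls under the first part). MYOF was named outside this rule, for a call that was lost under some alternatives. From the marker lists, KRT7, FGB, ALB, COL1A1, CDH5, VWF, PTPRC, PECAM1 and LYZ were named. Protein features were planned and not done. Alternatives were pseudocounts 1 and 0.01, no filter, a filter at 1 FPKM, TPM, median centring, quantile normalization, eBayes without the trend, the replicate block, voom, each library left out, and ANXA2 and ANXA2P2 summed. Python 3.11.15, numpy 2.4.6, pandas 2.3.3, Biopython 1.88 and matplotlib 3.10.9 were used.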

Additional observations from a re-analysis of the deposited data

How the results depend on the processing

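ANXA2, ANXA2P2, ANXA3, ANXA4 and ANXA5 kept their direction and their call under all 16 alternatives fitted for them, with log2 fold changes from -1.43 to -1.22, -1.35 to -1.16, -0.73 to -0.59, 0.36 to 0.56 and -0.46 to -0.21. With median centring and with voom on the recovered reads, the count of members called lower went from 4 to 7. This came by the calls of ANXA7, ANXA11 and ANXA13. Over all genes, 8372 and 8793 were called in these 2 settings, against 8521 as deposited. Each library left out in turn gave 4 lower and 1 higher, with 7788 to 7942 genes called in all, 13 lower and 7 to 8 higher in the partner lists, and DAGLA between -1.02 and -0.97. ANXA6 changed sign to -0.075 with median centring, -0.29 with quantile normalization and -0.070 with voom, and ran from -0.025 to 0.11 with a library left out. ANXA7 turned to 0.0079 with quantile normalization. Among the other genes, PEF1 turned to 0.015 with TPM, and MET to 0.027 with TPM and 0.075 with quantile normalization. PDCD6 turned to -0.065 with median centring, -0.069 with quantile normalization and -0.068 with voom. With a library left out, PEF1 ran from -0.059 to 0.033, MET from -0.0057 to 0.0091, S100A4 from -0.72 to 0.052 and S100A10 from -0.14 to 0.0078. Of these, MET was called in a setting that turned it, higher with quantile normalization (limma, adjusted p = 0.0273), and the others were not. ANXA10 ran from 0.67 to 2.07, with the pseudocounts of 1 and 0.01 at the ends. The cause of these changes was not tested, apart from the shift of the median of all genes (0.11 as deposited) that centring removes. MYOF and CPNE3, called near the threshold, lost their calls in 7 and 10 of 16 alternatives.

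With the replicate number as a block, 7919 genes were called in place of 8521, and the members and lists kept their counts of 4, 1, 14 and 8. Same-numbered libraries correlated at -0.01, -0.07 and -0.001 in their deviations from the group means, beside -0.04 to 0.05 for the other pairs. No shared deviation by number was seen, but 3 libraries a group cannot exclude that samples were handled in numbered pairs. By the length of the principal transcript, an alternative chosen after seeing the data, ANXA5 held 21.3% of the summed level of the members in Hep3B-Con, against 32.8% as deposited. At this depth the levels of ANXA1, ANXA6 and ANXA13, with 4 to 100 reads a library, allow no statement on small changes.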
